A study of Rattus norvegicus with 8 samples.

Results

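The passage of rat embryonic stem cells (ESC) into epiblast-like cells (EpiLC) was described from 4 of the 8 RNA sequencing libraries of the series, 2 of ESC and 2 of EpiLC, across 22228 named genes. ESC were kept on mouse embryonic fibroblast feeders in N2B27 medium with 1 µM PD0325901, an inhibitor of the kinase MEK, 3 µM CHIR99021, an inhibitor of the kinase GSK3, and rat LIF at 1000 U/ml. EpiLC were the same kind of cells after 60 h as floating aggregates in U-bottom wells, in a medium with 20 ng/ml activin A, 12 ng/ml bFGF and 1% of the serum substitute KSR. Both groups are labelled strain Crlj:WI and wild type, and the labels mention no sorting of either. The labels do not say whether these 2 groups carried the Nanos3 reporter by which other groups of the series were sorted. The inhibitors, LIF, the feeders, the growth factors, KSR and the aggregate form all change between the groups, so their effects cannot be told apart. No label says that the 2 libraries of a group came from separate cultures, so the spread between them may be technical. P-values and standard errors rest on this spread pooled over all 8 libraries of the series and moderated across genes. They do not measure the spread of the ESC and EpiLC libraries alone.

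Naive pluripotent cells match the epiblast before implantation and are held there by LIF signalling through STAT3, by active beta-catenin and by blocked ERK signalling. When these supports are withdrawn and FGF and activin signals act, the cells pass into a formative state, in which the naive factors are shut off, the epiblast becomes a polarized epithelium, DNA is methylated again, and the cells become able to form germ cells and the body's tissues. The account below takes signalling, cell architecture, metabolism, chromatin and transcription factor families.

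Levels are in TPM, a measure per transcript length scaled to the same total in each library, and were deposited as log2(TPM + 1). This scale understates the change of genes with few transcripts. Paired values give replicate 1 and then replicate 2, and differences are EpiLC minus ESC on the log2(TPM + 1) scale with a standard error (SE). A gene was said to rise or fall only where limma gave a Benjamini-Hochberg adjusted p under 0.05 and the difference was at least 1, and other tested genes are given without such a verb. Of 13571 tested genes, 1698 rose (12.5%) and 1467 fell (10.8%), and these shares are the background for every count below. In all 3165 of these genes the EpiLC libraries did not overlap the ESC libraries, which was also so for 11384 of the 13571 tested genes. The median difference over tested genes was 0.038, and the 5th and 95th percentiles were -1.71 and 1.88. Libraries of 1 group correlated at 0.997 (ESC) and 0.9968 (EpiLC) across genes, against 0.8882 to 0.892 between groups. Depth relative to ESC replicate 1 was 1.37 for ESC replicate 2, 1.16 for EpiLC replicate 1 and 1.49 for EpiLC replicate 2. In bulk libraries fewer cells of a type and less RNA per cell cannot be told apart.

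**Figure D1:**
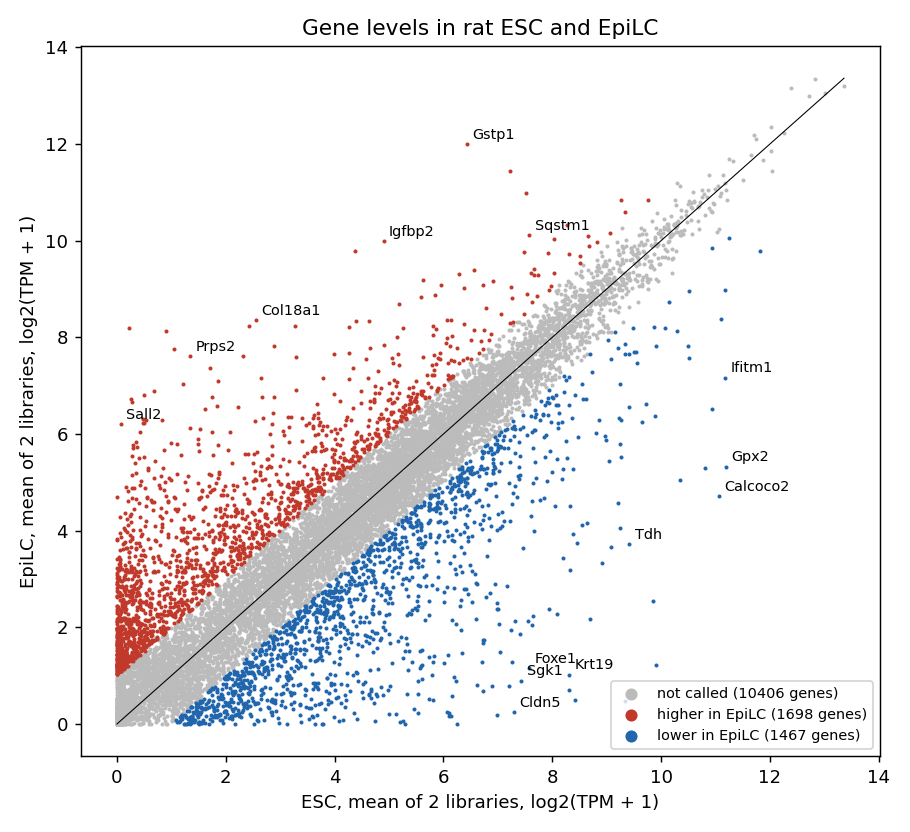
Mean level of each tested gene in the 2 ESC libraries (horizontal axis) and the 2 EpiLC libraries (vertical axis), both as log2(TPM + 1), with genes that rose in red, genes that fell in blue and the line of equal levels. The 1698 risen and 1467 fallen genes lie on both sides over the whole range of levels, with Gstp1 far above the line and Gpx2 and Calcoco2 far below it.

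Of the 12 pluripotency identity genes, all tested, 3 rose and 2 fell, and they summed to 7231 and 7272 TPM in the ESC libraries and to 6966 and 6994 TPM in the EpiLC libraries, here and in the sums below with the lower library first. Epcam, an adhesion protein of epithelial and pluripotent cells, stood at 589.99 and 574 TPM in ESC and 1013 and 979.9 TPM in EpiLC. Utf1, a chromatin protein of pluripotent cells, rose from 899 and 834 to 1865 and 1813 TPM (log2 difference 1.09, SE 0.055). The 2 that fell were Nanog, from 933 and 912 to 5.55 and 4.24 TPM (log2 difference -7.3, SE 0.105), and Sox2, from 211 and 223 to 26.5 and 21.2 TPM (log2 difference -3.14, SE 0.092). Levels of other cell types' markers were low for most genes. Of 14 tested fibroblast and feeder markers, 5 rose and 2 fell, and the 20 markers of the list summed to 35.8 and 41.3 TPM in the ESC libraries and to 58.1 and 106 TPM in the EpiLC libraries. The 2 EpiLC libraries differed here: the proteoglycan Dcn was at 0.261 and 0.287 TPM in ESC and 9.61 and 15.7 TPM in EpiLC. Without EpiLC replicate 1 the list had 8 genes that rose and 1 that fell, and with a filter at 5 TPM or a pseudocount of 5, 2 rose. Reads of mouse feeder cells can map to the rat genome, and their part in the values was not tested. Of 8 tested extraembryonic endoderm markers 1 rose and 1 fell, and none rose with a filter at 5 TPM, a pseudocount of 5 or quantile normalization. The list summed to 415 and 472 TPM in the ESC libraries and to 484 and 490.5 TPM in the EpiLC libraries. Most of that sum was the homeobox gene Rhox5, at 456 and 399 TPM in ESC and 486 and 479 TPM in EpiLC. In this list Apoa1 and Ttr were listed at 0 in all 4 libraries, and Hnf4a, a nuclear receptor of that tissue, fell from 13.1 and 12.4 TPM and was listed at 0 in both EpiLC libraries. Of 9 tested trophoblast markers 5 rose, all to at most 8.44 TPM, and 2 fell, and Prl2c1 was at 0. That list, in which Cdx2 was the highest ESC gene, summed to 178 and 199.6 TPM in the ESC libraries and to 70.8 and 76.1 TPM in the EpiLC libraries. Cdx2 fell from 116 and 135 to 0.05 and 0.235 TPM (log2 difference -6.79, SE 0.187), which was also the greatest fall among the WNT targets below. Only 1 trophoblast marker rose with a pseudocount of 5. The neural markers summed to 65.5 and 78.6 TPM in the ESC libraries and to 11.7 and 11.7 TPM in the EpiLC libraries, most of it Tubb3. Of 9 tested mesoderm and streak markers 2 rose and 2 fell. With quantile normalization or a pseudocount of 0.1, 4 of them fell, and with a pseudocount of 5, 1 rose and 1 fell. This list summed to 45.2 and 46.7 TPM in the ESC libraries and to 59.9 and 60.1 TPM in the EpiLC libraries. Blood and endothelial markers, of which 3 of 6 tested fell, summed to 119 and 120.1 TPM in the ESC libraries and to 58.8 and 63.9 TPM in the EpiLC libraries. Their highest gene, the adhesion protein Pecam1, fell from 103 and 105 to 50.8 and 47.7 TPM (log2 difference -1.06, and -0.99 with quantile normalization). Neural Pax6, Pax7, Neurog2 and Six3, mesodermal Mesp1, Msgn1 and Cer1, and Hbb and Emcn of blood and vessels were at 0 in all 4 libraries.

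Among the 12 largest rises were genes outside the usual lists of formative markers. Prps2, which makes the ribose phosphate precursor of nucleotides, was at 1.51 and 1.54 TPM in ESC and 188 and 199 TPM in EpiLC (log2 difference 6.27, SE 0.098, limma adjusted p = 8.68e-11). Sall2, a zinc finger factor, was at 0 and 0.097 TPM in ESC and 72.6 and 72.2 TPM in EpiLC (log2 difference 6.13, SE 0.133, limma adjusted p = 4.1e-10). Both EpiLC libraries lay far above both ESC libraries, in which these genes were near the bottom of the range. Osgin1, induced by oxidative stress, rose from 0.271 and 0.509 to 81.5 and 75.1 TPM (log2 difference 5.84, SE 0.147). Serpinh1, the collagen chaperone of the endoplasmic reticulum, rose from 4.47 and 4.33 to 325 and 279.5 TPM (log2 difference 5.81, SE 0.236). Tmem154, a membrane protein, rose from 0.373 and 0.464 to 107 and 116 TPM (log2 difference 6.31, SE 0.131). Saal1 rose from 0.691 and 0.505 to 119.8 and 115 TPM (log2 difference 6.22, SE 0.159).

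The largest falls included abundant ESC transcripts of structural and signalling proteins. Calcoco2, an autophagy receptor for bacteria and mitochondria, was at 2016 and 2256 TPM in ESC and 26.9 and 23.5 TPM in EpiLC (log2 difference -6.35, SE 0.266, limma adjusted p = 2.47e-08). Krt19, an epithelial keratin, was at 332 and 299 TPM in ESC and 1.34 and 0.753 TPM in EpiLC (log2 difference -7.29, SE 0.146, limma adjusted p = 2.65e-10). Cldn5, a tight junction claudin, fell from 153 and 160.1 to 0.145 and 0.224 TPM (log2 difference -7.06, SE 0.111). In these 3 genes each EpiLC library was far below each ESC library. Sgk1, a kinase downstream of PI3K, fell from 167 and 176 to 0.735 and 0.993 TPM (log2 difference -6.53, SE 0.16). Foxe1, a forkhead factor, fell from 184 and 196 to 1.1 and 1.37 TPM (log2 difference -6.42, SE 0.124).

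The WNT pathway runs from secreted ligands through Frizzled receptors and LRP co-receptors to beta-catenin, which acts at DNA through TCF factors. ESC medium held a GSK3 inhibitor, which stabilizes beta-catenin, and EpiLC medium is not labelled as holding it. Of 23 tested WNT target and feedback genes 2 rose and 9 fell, with a median difference of -0.44 against 0.038 over all tested genes, and 1 rose without ESC replicate 1 or without EpiLC replicate 1. Axin2 and Sp5 are textbook targets, and stretches before their starts are shown because each holds a match to the TCF motif. They run 5′ to 3′ on the gene's strand, come from the RefSeq annotation of GRCr8, and carry the match in capitals.
Axin2 (chr10:94398595-94398714, plus strand): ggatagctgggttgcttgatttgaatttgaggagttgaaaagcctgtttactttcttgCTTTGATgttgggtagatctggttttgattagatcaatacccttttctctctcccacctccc
Sp5 (chr3:75682517-75682636, plus strand): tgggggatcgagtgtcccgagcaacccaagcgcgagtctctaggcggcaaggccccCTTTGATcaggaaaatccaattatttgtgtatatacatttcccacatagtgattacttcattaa
The motif searched was ATCAAAG on both strands, here met as CTTTGAT, in the 250 bases before and 50 after each start. It was found in 2.32% of 10272 tested genes with a promoter entry, in 1.98% of those that rose, in 2.92% of those that fell and in 3.62% of all 27457 promoters. Of 20 tested WNT targets with an entry 5 held it (Axin2, Tcf7, Nkd1, Sp5 and Cdx1). A match is a description of the letters and not a binding site. The expression values were made on another build, rn7, and genes were matched by symbol alone.

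Axin2, which dampens beta-catenin signalling as feedback, was at 13.5 and 14.9 TPM in ESC and 2.78 and 2.07 TPM in EpiLC (log2 difference -2.15, SE 0.15, limma adjusted p = 8.81e-07). Sp5, a zinc finger factor, was at 9.38 and 11.9 TPM in ESC and 0.097 and 0.037 TPM in EpiLC (log2 difference -3.44, SE 0.223, limma adjusted p = 5.28e-07). The third gene with a match that fell was Cdx1, a homeobox factor, and Tcf7 and Nkd1 did not pass. Nkx1-2, a homeobox factor of the caudal epiblast, fell from 24.3 and 23.5 to 0.224 and 0.871 TPM (log2 difference -4.04, SE 0.222). Tnfrsf19 fell from 26.7 and 35.5 to 3.99 and 3.68 TPM (log2 difference -2.72, SE 0.119). Zbed3, which binds AXIN, went the other way and rose from 15.2 and 15.7 to 64.2 and 63.9 TPM (log2 difference 1.98, SE 0.087).

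Ligands and receptors of the pathway moved in both directions. Of 34 tested ligands, receptors and secreted inhibitors 5 rose (14.7%, near the background of 12.5%) and 7 fell (20.6%). Fzd10 was the Frizzled receptor with the greatest fall, at 66.4 and 73.5 TPM in ESC and 0.097 and 0.15 TPM in EpiLC (log2 difference -5.98, SE 0.113, limma adjusted p = 2.21e-10). Fzd2 was at 0.627 and 0.367 TPM in ESC and 39.3 and 36.9 TPM in EpiLC (log2 difference 4.71, SE 0.13, limma adjusted p = 1.52e-09). Fzd7 rose from 1.49 and 2.27 to 23.7 and 25.7 TPM (log2 difference 3.17, SE 0.135), and the co-receptor Lrp5 rose from 3.37 and 3.29 to 42.5 and 39.6 TPM (log2 difference 3.28, SE 0.166). The ligand Wnt3a fell from 10.1 and 12.2 to 0.166 and 0.051 TPM (log2 difference -3.45, SE 0.133). Ror2, a receptor for the ligand WNT5A, fell from 27.6 and 31.2 to 3.35 and 2.39 TPM (log2 difference -2.98, SE 0.186). The secreted inhibitors also parted: Sfrp2 rose from 0.788 and 0.399 to 8.8 and 10.8 TPM, while Sfrp1 fell from 21 and 24.1 to 4.37 and 6.37 TPM.

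LIF binds LIFR and the shared subunit GP130 (Il6st), which activate JAK kinases and STAT3. Of 30 tested genes of the pathway 5 rose and 10 fell, with a median difference of -0.26. The receptor Lifr was at 35.2 and 44.1 TPM in ESC and 3.69 and 3.83 TPM in EpiLC (log2 difference -3.08, SE 0.16). Il6st was at 124 and 139 TPM in ESC and 15.7 and 15.8 TPM in EpiLC (log2 difference -2.98, SE 0.078, limma adjusted p = 1.12e-09). Stat3 fell from 112 and 113 to 23.8 and 20.6 TPM (log2 difference -2.29, SE 0.111), and Pim1, a kinase induced by STAT3, fell from 91.7 and 82.9 to 19.9 and 21.1 TPM (log2 difference -2.04, SE 0.094). The kinases parted: Jak2 fell from 50 and 58.7 to 6.22 and 6.38 TPM (log2 difference -2.92, SE 0.137), and Jak1 rose from 13 and 13.9 to 35.3 and 35.7 TPM (log2 difference 1.34, SE 0.074). So did the inhibitors, of which Socs1 rose from 11.8 and 12.1 to 84 and 86.7 TPM (log2 difference 2.74, SE 0.064), while Socs3 fell from 180.3 and 192 to 3 and 3.73 TPM. Ptpn6, a phosphatase that acts on JAK kinases, rose from 4.4 and 5.05 to 29.2 and 27.6 TPM (log2 difference 2.36, SE 0.082). With a filter at 5 TPM or a pseudocount of 5, 3 genes of the list rose.

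ERK signalling is read out by the phosphatases and inhibitors that it induces against itself. ESC medium held a MEK inhibitor and EpiLC medium held bFGF. Of 30 tested feedback and output genes 15 rose and 4 fell, with a median difference of 0.93; with a pseudocount of 5, 9 rose. Dusp6, a phosphatase of ERK, was at 4.31 and 3.7 TPM in ESC and 210.3 and 183 TPM in EpiLC (log2 difference 5.3, SE 0.087, limma adjusted p = 1.04e-10). Spry1, an inhibitor of receptor signalling, was at 1.05 and 1.11 TPM in ESC and 25.2 and 24.7 TPM in EpiLC (log2 difference 3.64, SE 0.079, limma adjusted p = 4.1e-10). Dusp9, another ERK phosphatase, rose from 0.277 and 0.034 to 14.8 and 18 TPM (log2 difference 3.92, SE 0.152), and Phlda1, induced by growth factors, rose from 1.39 and 1.26 to 121 and 138 TPM (log2 difference 5.81, SE 0.083). The list did not move as 1 block. Etv4, an ETS factor often used as an ERK readout, fell from 78.9 and 69.5 to 3.25 and 3.16 TPM (log2 difference -4.16, SE 0.091), and Etv5 and Spry2 fell from 199 and 210.4 to 87.3 and 91.9 TPM and from 119.6 and 114 to 52.6 and 46.7 TPM. The immediate-early gene Egr1 differed within ESC, at 27.4 and 5.16 TPM in ESC and 72.6 and 77.1 TPM in EpiLC (log2 difference 2.52, SE 0.517, limma adjusted p = 0.00168). Fos stood at 10.7 and 3.09 TPM in ESC and 7.07 and 8.75 TPM in EpiLC, with overlapping groups. Of 17 tested FGF ligands, receptors and partners 5 rose and 3 fell, and with a pseudocount of 5 only 1 rose. Fgf8 rose from 0.326 and 0.079 to 5.05 and 7.77 TPM (log2 difference 2.6, SE 0.215), and Fgf17, of the same subfamily, fell from 35.6 and 44 to 1.68 and 0.727 TPM (log2 difference -4.24, SE 0.208).

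Genes of the TGF-beta family moved in both directions. Of 28 tested NODAL and activin genes 3 rose (10.7%, near the background of 12.5%) and 5 fell (17.9%). Of 20 tested BMP genes 4 rose and 7 fell. Gdf3, a NODAL-like ligand, was at 589 and 641 TPM in ESC and 47.8 and 42.1 TPM in EpiLC (log2 difference -3.75, SE 0.079, limma adjusted p = 3.7e-10). Bmp4 was at 91.6 and 99.6 TPM in ESC and 6.11 and 6.95 TPM in EpiLC (log2 difference -3.68, SE 0.081, limma adjusted p = 4.27e-10). Bmp2 went the other way and rose from 0.27 and 0.132 to 7.4 and 9.57 TPM (log2 difference 2.97, SE 0.172). Lefty1, an inhibitor of NODAL, fell from 700.4 and 816 to 158 and 198 TPM (log2 difference -2.09, SE 0.114), and its paralog Lefty2 rose from 8.49 and 13.8 to 28.3 and 32.2 TPM (log2 difference 1.4, SE 0.204). Id3, a BMP target that holds back helix-loop-helix factors, fell from 341 and 321 to 15.7 and 12.7 TPM (log2 difference -4.45, SE 0.086), while Id1 rose from 3.42 and 2.33 to 13.4 and 17.3 TPM (log2 difference 2.08, SE 0.147).

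Notch, Hedgehog and Hippo genes moved in both directions. Of 22 tested Notch genes 4 rose and 6 fell. Hey2, a Notch target repressor, fell from 50.5 and 54.4 to 0.638 and 0.264 TPM (log2 difference -5.21, SE 0.123), and Hes1, another, rose from 32.7 and 35.9 to 107 and 104 TPM (log2 difference 1.6, SE 0.064). The ligand Jag1 fell from 16.3 and 20 to 1.88 and 2.03 TPM, and the receptor Notch3 rose from 1.42 and 1.93 to 13.8 and 17.1 TPM. Of 13 tested Hedgehog genes 4 rose and 2 fell, the latter 1 without ESC replicate 2. Smo, the signal transducer of the pathway, was at 0.603 and 0.588 TPM in ESC and 37.7 and 29.3 TPM in EpiLC (log2 difference 4.42, SE 0.155, limma adjusted p = 7.36e-09), and Hhip, which binds and removes ligand, rose from 1.88 and 1.07 to 26.6 and 28.7 TPM (log2 difference 3.55, SE 0.157). Of 27 tested Hippo pathway genes 7 rose and 6 fell. Among the DNA-binding partners of YAP Tead2 rose from 7.49 and 8.1 to 73.8 and 87.3 TPM (log2 difference 3.21, SE 0.114). Tead4 fell from 7.59 and 8.81 to 0.534 and 0.515 TPM (log2 difference -2.59, SE 0.136) and Tead3 fell from 8.47 and 8.79 to 1.73 and 1.78 TPM (log2 difference -1.8, SE 0.125), while Tead1 stood at 14.4 and 17.2 TPM in ESC and 10.2 and 10.7 TPM in EpiLC and did not pass. Ccn2, a widely used YAP target, fell from 106 and 88.3 to 6.57 and 6.33 TPM (log2 difference -3.72, SE 0.107), and Wwtr1, the YAP relative TAZ, fell from 74.2 and 74.6 to 14.1 and 16.1 TPM (log2 difference -2.23, SE 0.084). Wwc1 (KIBRA), an upstream activator of the kinases of the pathway, rose from 7.81 and 8.55 to 76.9 and 83.6 TPM (log2 difference 3.15, SE 0.107). The counts that rose were 2 for Notch, 2 for Hedgehog and 4 for Hippo with a pseudocount of 5.

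Insulin and IGF signalling genes rose more often than fell, 10 against 4 of 33 tested. Igfbp2, a secreted IGF binder, was at 34.3 and 24.2 TPM in ESC and 1028 and 1005 TPM in EpiLC (log2 difference 5.09, SE 0.132, limma adjusted p = 1.1e-09). Ddit4l, an inhibitor of mTOR signalling, rose from 0.428 and 0.313 to 14.8 and 13.8 TPM (log2 difference 3.48, SE 0.163). The receptor Igf1r fell from 23.1 and 26.8 to 3.76 and 4.69 TPM (log2 difference -2.31, SE 0.134), and Irs2, an adaptor of the insulin and IGF receptors, rose from 5.02 and 5.18 to 20.4 and 20.5 TPM (log2 difference 1.81, SE 0.157). With a pseudocount of 5, 6 rose and 2 fell. Guidance systems also changed. Of 27 tested semaphorins, plexins, netrins and slits 12 rose and 3 fell, with a median of 0.51, 6 rose with a pseudocount of 5, and 5 fell with quantile normalization. Sema6a, a membrane semaphorin, was at 0.332 and 0.218 TPM in ESC and 31.6 and 40.2 TPM in EpiLC (log2 difference 4.85, SE 0.175). Unc5b, a netrin receptor, was at 1.59 and 1.47 TPM in ESC and 68.2 and 69.6 TPM in EpiLC (log2 difference 4.79, SE 0.092, limma adjusted p = 2.31e-10). Its ligand Ntn1 fell from 43.2 and 46 to 4.7 and 5.05 TPM (log2 difference -2.96, SE 0.099). Of 16 tested ephrins and Eph receptors 6 rose and 5 fell. The ligand Efnb2 rose from 3.35 and 4.07 to 98.2 and 89.4 TPM (log2 difference 4.33, SE 0.188), and the ligand Efna2 fell from 46.7 and 49.2 to 1.28 and 1.4 TPM (log2 difference -4.39, SE 0.088).

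**Figure D2:**
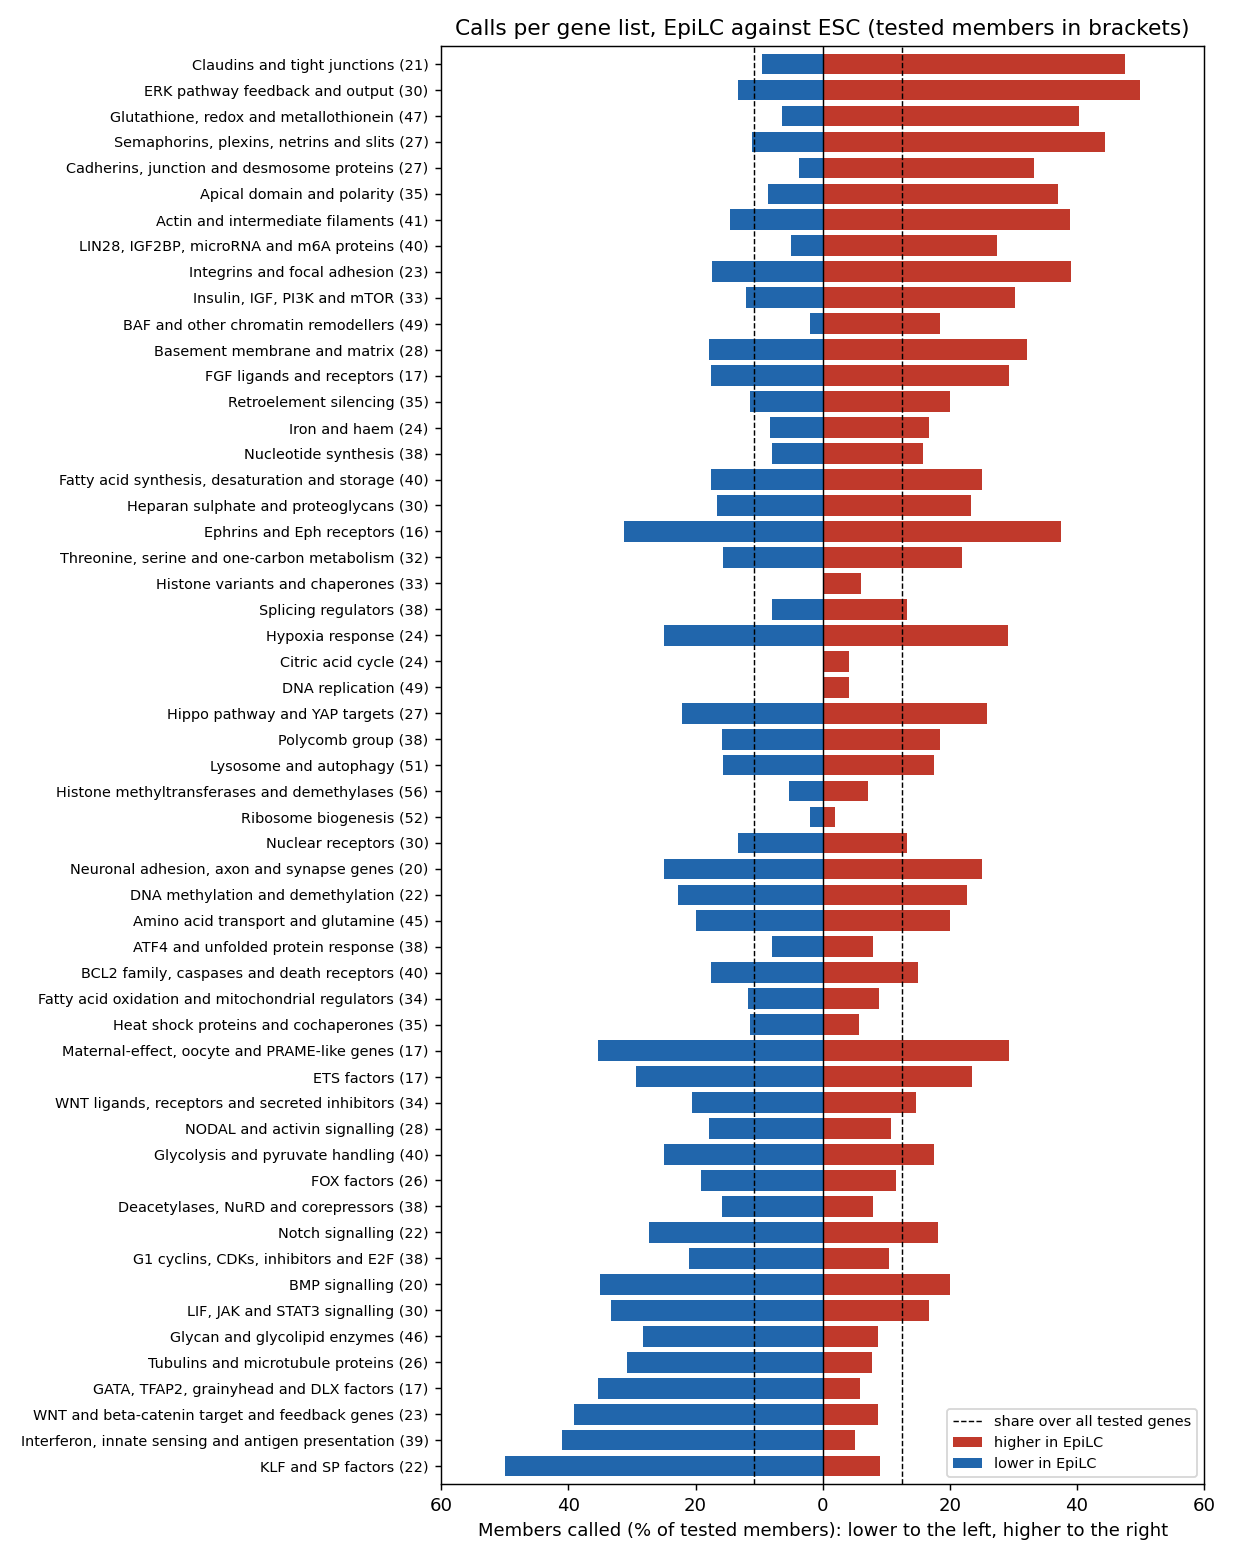
Share of the tested members of each gene list that rose (right, red) or fell (left, blue), in percent, for lists with at least 15 tested members, ordered by the difference of the shares, with dashed lines at the background of 12.5% and 10.8%. Tight junction, ERK feedback, redox and semaphorin lists stand at the top, and KLF and SP factors, interferon genes and WNT targets at the bottom.

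Genes of the apical side and of cell junctions rose more often than they fell. Of 35 tested apical and polarity genes 13 rose and 3 fell, of 27 tested cadherin, junction and desmosome genes 9 rose and 1 fell, and of 21 tested claudin and tight junction genes 10 rose and 2 fell (medians 0.36, 0.5 and 0.93). Rab25, a trafficking protein of epithelial cells, was at 0.11 and 0.162 TPM in ESC and 18.2 and 17.4 TPM in EpiLC (log2 difference 4.05, SE 0.169, limma adjusted p = 2.45e-08). Llgl2, a polarity protein, rose from 15.4 and 16.8 to 107 and 97.8 TPM (log2 difference 2.6, SE 0.09), and Podxl, the sialomucin that coats the lumen of the epiblast, rose from 30.9 and 35.6 to 128 and 150.2 TPM (log2 difference 2.03, SE 0.132). Cldn4 was at 0.733 and 1.66 TPM in ESC and 53.3 and 55.4 TPM in EpiLC (log2 difference 4.69, SE 0.214, limma adjusted p = 4.33e-08), and Cldn6 was at 33.8 and 37.3 TPM in ESC and 388 and 431 TPM in EpiLC (log2 difference 3.49, SE 0.124, limma adjusted p = 7.96e-09). Both stood against the fall of Cldn5 given above. The tight junction protein Cgn rose from 0.486 and 0.662 to 21.5 and 25.2 TPM (log2 difference 3.95, SE 0.156). Nectin4 and the desmosomal cadherin Dsg2 rose from 0.163 and 0.08 to 11.9 and 11.1 TPM and from 2.82 and 4.22 to 20.6 and 23.9 TPM. Cobl, an actin nucleator, fell from 35.7 and 42.9 to 0.551 and 0.541 TPM (log2 difference -4.7, SE 0.133), and the junction protein Jam2 fell from 70.3 and 86 to 9.64 and 7.82 TPM (log2 difference -3.02, SE 0.137). Cdh1, the main epithelial cadherin, stood at 442 and 513 TPM in ESC and 521 and 584 TPM in EpiLC and did not pass. With a pseudocount of 5, 8 apical and 5 junction genes rose.

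Matrix and basement membrane genes moved in both directions. Of 28 tested matrix genes 9 rose and 5 fell. Lama1, a laminin alpha chain, was at 89.6 and 123 TPM in ESC and 0.58 and 0.652 TPM in EpiLC (log2 difference -6.03, SE 0.161, limma adjusted p = 1.24e-09), and Lama5, the alternative alpha chain, rose from 10.4 and 14.2 to 30 and 32.6 TPM (log2 difference 1.29, SE 0.144). Col18a1 was at 4.42 and 5.32 TPM in ESC and 319 and 332 TPM in EpiLC (log2 difference 5.8, SE 0.081, limma adjusted p = 6.89e-11), and Col4a1 was at 0.236 and 0.2 TPM in ESC and 26.9 and 29.8 TPM in EpiLC (log2 difference 4.59, SE 0.14, limma adjusted p = 2.96e-09). Both are collagens of basement membranes, and their EpiLC libraries were close to each other. Nid1, which links laminin and collagen, fell from 319 and 391 to 63.4 and 57.2 TPM (log2 difference -2.53, SE 0.16), and Fn1 fell from 630.2 and 869 to 211 and 199.9 TPM (log2 difference -1.84, SE 0.12). The fibroblast markers rose in part over the same contrast, with Col1a2 at 3.27 and 2.27 TPM in ESC and 13.1 and 16.6 TPM in EpiLC, and their part in the matrix values was not tested. Of 23 tested integrin and focal adhesion genes 9 rose and 4 fell. Itga3 rose from 0.475 and 0.365 to 12.8 and 8.2 TPM (log2 difference 2.99, SE 0.182), the focal adhesion protein Zyx rose from 12.7 and 14.4 to 77 and 64.2 TPM (log2 difference 2.3, SE 0.174), and Itga7 fell from 49 and 50.3 to 4.02 and 2.97 TPM (log2 difference -3.5, SE 0.141). With a pseudocount of 5, 5 matrix and 5 integrin genes rose and 3 matrix genes fell.

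Actin genes rose more often than they fell, and tubulin genes fell more often than they rose. Of 41 tested actin and filament genes 16 rose and 6 fell, and with a pseudocount of 5, 9 rose. Myh10, a non-muscle myosin, was at 34.6 and 40.4 TPM in ESC and 303 and 279 TPM in EpiLC (log2 difference 2.93, SE 0.09, limma adjusted p = 3.14e-09). Acta1, a muscle actin, rose from 0.833 and 0.791 to 26.3 and 29.3 TPM (log2 difference 3.99, SE 0.125), and Myl9, a myosin light chain, rose from 1.14 and 1.89 to 38.2 and 30.2 TPM (log2 difference 3.82, SE 0.158). Tagln2, an actin binder, fell from 323 and 337 to 42.3 and 33.1 TPM (log2 difference -3.11, SE 0.118). Of 26 tested tubulin and microtubule genes 2 rose and 8 fell, with a median of -0.47, and 1 rose without EpiLC replicate 2. The beta tubulin Tubb4a led the ranked rises, at 0.173 and 0.168 TPM in ESC and 273 and 316 TPM in EpiLC (log2 difference 7.97, SE 0.105, limma adjusted p = 6.89e-11). Stmn2, a neuronal destabilizer of microtubules, was at 153 and 153 TPM in ESC and 2.12 and 0.909 TPM in EpiLC (log2 difference -5.98, SE 0.239, limma adjusted p = 1.83e-08). The beta tubulin Tubb3 fell from 72.6 and 59.6 to 5.96 and 6.35 TPM (log2 difference -3.22, SE 0.134), and the microtubule binder Mapt fell from 19.1 and 16.4 to 0.78 and 0.706 TPM (log2 difference -3.42, SE 0.13). Tubb2a and Tubb2b are near-identical copies that may share reads, and they fell from 298 and 278 to 36.5 and 29.1 TPM and from 271 and 268 to 46.2 and 41.5 TPM. Exchange factors for small GTPases with Arhgef symbols were named because their share that rose was among the greatest of 143 symbol families. Of 22 tested members 8 rose (36.4%, against 12.5% of all tested genes). They were led by Arhgef2, which microtubules bind, with 0.504 and 0.312 TPM in ESC and 44.5 and 45.5 TPM in EpiLC (log2 difference 5.03, SE 0.137).

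Glycan enzymes fell more often than they rose, and proteoglycan and connexin genes moved in both directions. Of 46 tested glycan and glycolipid enzymes 4 rose and 13 fell, with a median of -0.43. B4galt6, which makes lactosylceramide, fell from 56.6 and 70.3 to 4.86 and 4.57 TPM (log2 difference -3.49, SE 0.123), and the galactosyltransferase B4galt1 fell from 134 and 132 to 16.7 and 15.6 TPM (log2 difference -2.97, SE 0.119). Fut1, a fucosyltransferase of blood group H sugars, rose from 0.617 and 0.58 to 22.1 and 23.9 TPM (log2 difference 3.91, SE 0.158). Of 30 tested heparan sulphate genes 7 rose and 5 fell. The glypican Gpc3 was at 0.369 and 0.193 TPM in ESC and 54.1 and 58.5 TPM in EpiLC (log2 difference 5.49, SE 0.166, limma adjusted p = 2.75e-09), and its relative Gpc2 fell from 54 and 49.8 to 3.75 and 3.78 TPM (log2 difference -3.47, SE 0.224). Sdc2 rose from 0.556 and 0.528 to 21.4 and 26.4 TPM (log2 difference 4.0, SE 0.153), while Sdc4, another syndecan, fell from 26.4 and 40.6 to 5.92 and 6.27 TPM (log2 difference -2.25, SE 0.171). Of 10 tested connexins and pannexins 3 rose and 3 fell. Gjb5 was at 248 and 239.5 TPM in ESC and 3.88 and 4.49 TPM in EpiLC (log2 difference -5.56, SE 0.117, limma adjusted p = 3.45e-10).

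Glutathione and redox genes rose more often than they fell. Cells use glutathione, thioredoxin and the enzymes that recycle them to neutralize oxidants and electrophiles, and many of these genes are controlled by the factor NRF2 (Nfe2l2). Of 47 tested members 19 rose and 3 fell, with a median of 0.59. Gstp1, a glutathione transferase, had the largest rise. The bases before its start are shown because they hold a match to TGANTCA, the motif of AP-1, in capitals.
Gstp1 (chr1:210769706-210769825, minus strand, RefSeq GRCr8): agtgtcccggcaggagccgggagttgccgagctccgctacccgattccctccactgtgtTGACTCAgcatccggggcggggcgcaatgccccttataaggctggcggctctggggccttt
The motif, searched on both strands, was found in 4.8% of tested promoters, 6.25% of those of genes that rose, 6.56% of those of genes that fell and 7.33% of all promoters. In 39 redox genes with an entry 7 held it, 4 of the 16 that rose and 1 of the 3 that fell. The antioxidant response element core TGACNNNGC, the motif of NRF2, was added after the data were seen. It was in 14.8% of tested promoters, 16.6% of those of genes that rose and 14.6% of those of genes that fell. In the 39 redox genes 14 held it, 4 of the 16 that rose and 2 of the 3 that fell, and in Gstp1 it overlaps the match shown.

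Gstp1 was at 79.9 and 91.3 TPM in ESC and 4132 and 4036 TPM in EpiLC (log2 difference 5.56, SE 0.091, limma adjusted p = 1.04e-10). Several enzymes of glutathione synthesis and recycling rose, while 25 of the 47 tested genes of the list neither rose nor fell. Gclc and Gclm, the subunits of the limiting ligase, rose from 64.6 and 77.5 to 256 and 263 TPM and from 199.6 and 205 to 644 and 599 TPM, and Gsr, which reduces glutathione, rose from 192 and 212 to 670.4 and 693 TPM (log2 difference 1.75, SE 0.057). Txnrd1, the thioredoxin reductase of the cytosol, rose from 174 and 183 to 848 and 892 TPM (log2 difference 2.28, SE 0.055). Nqo1, a quinone reductase, rose from 56.9 and 84.9 to 336 and 317 TPM (log2 difference 2.21, SE 0.143), and Cat, which breaks down peroxide, rose from 27 and 29.1 to 122 and 124 TPM (log2 difference 2.1, SE 0.07). Gstm1, Gstm2, Gstm4 and Gstm5 also rose but are close copies that may share reads, so their single values are uncertain. Against these, Gpx2, a glutathione peroxidase, was at 2298 and 2379 TPM in ESC and 39.1 and 38.8 TPM in EpiLC (log2 difference -5.87, SE 0.101, limma adjusted p = 1.13e-10). Gsta4 fell from 108 and 119 to 11.7 and 14.5 TPM (log2 difference -3.03, SE 0.099). The metallothionein Mt2A fell from 3786 and 3394 to 866 and 907 TPM (log2 difference -2.01, SE 0.07). Nfe2l2 itself stood at 34.1 and 38.5 TPM in ESC and 60.9 and 63.1 TPM in EpiLC and its inhibitor Keap1 at 29.4 and 30.4 TPM in ESC and 24 and 22.5 TPM in EpiLC, and neither passed. Sqstm1, an autophagy receptor that binds KEAP1, rose from 178 and 203 to 1129 and 1079 TPM (log2 difference 2.53, SE 0.064, limma adjusted p = 9.38e-10).

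**Figure D3:**
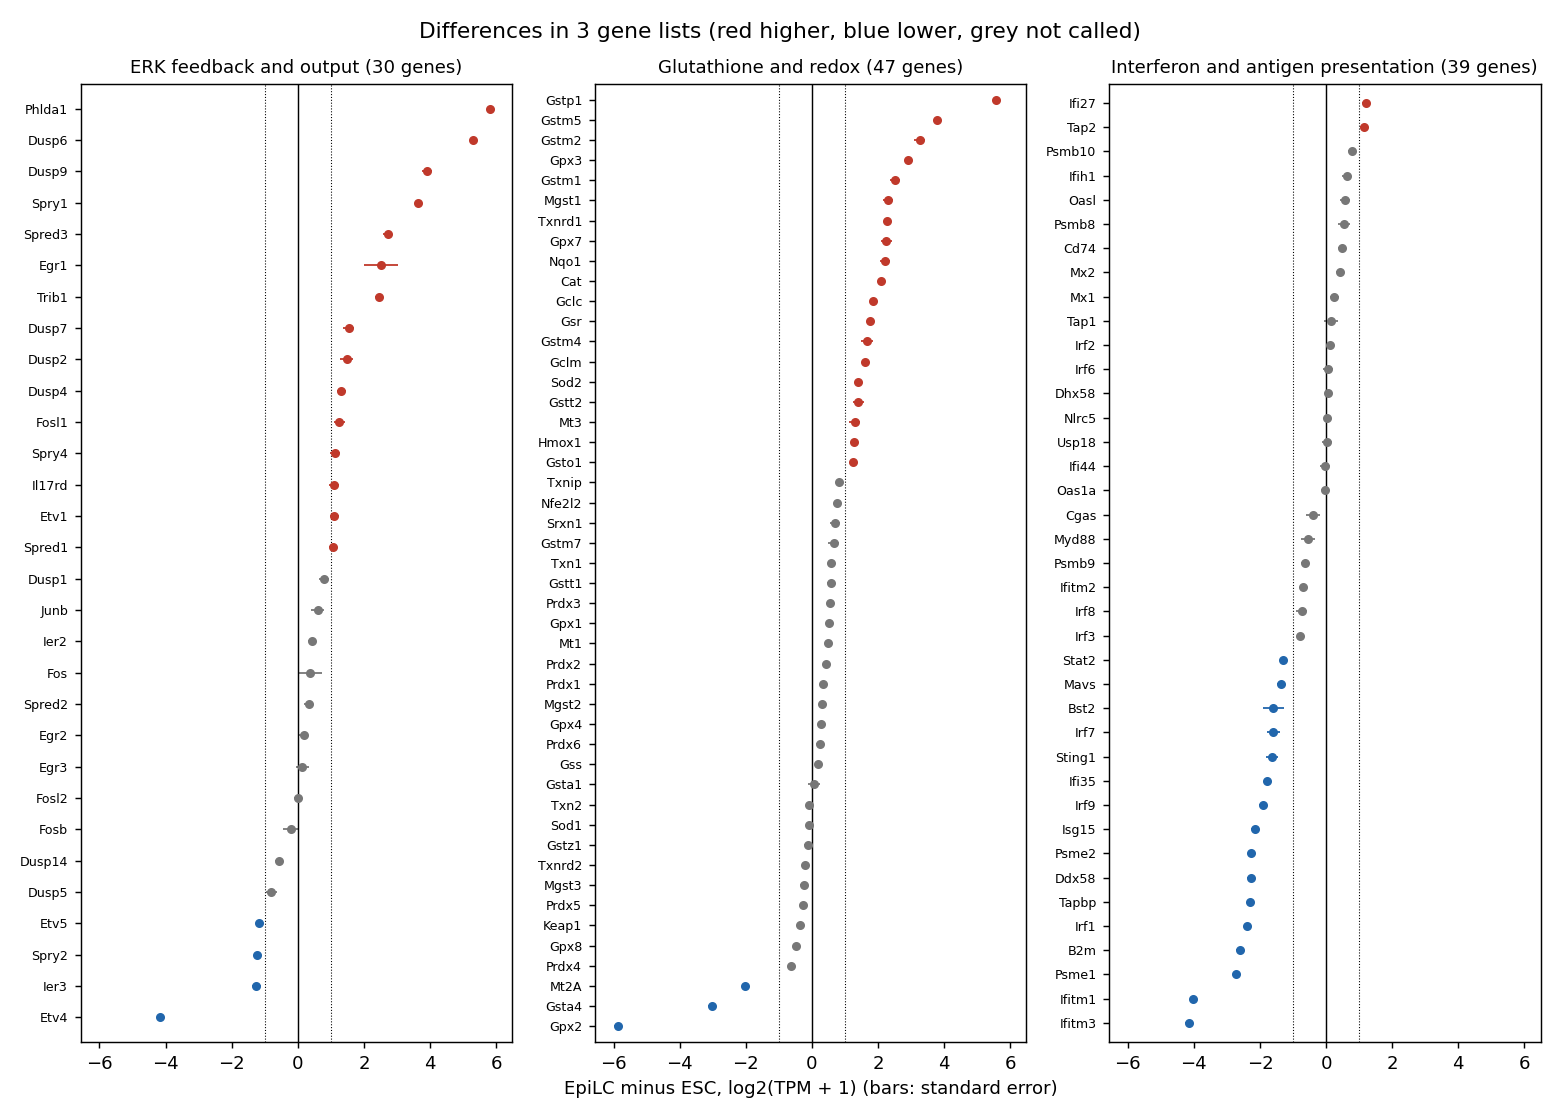
Difference between EpiLC and ESC on the log2(TPM + 1) scale with its standard error for every tested gene of the ERK feedback, redox and interferon lists, with dotted lines at a difference of 1 in either direction. In the ERK list 15 of 30 and in the redox list 19 of 47 genes lie to the right in red, and in the interferon list 16 of 39 lie to the left in blue.

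Genes of sugar metabolism moved in both directions, and isoforms of an enzyme differed. Of 40 tested glycolysis and pyruvate genes 7 rose and 10 fell. The phosphofructokinases Pfkm and Pfkp were at 18.4 and 18.1 TPM in ESC and 227 and 180.02 TPM in EpiLC (log2 difference 3.4, SE 0.1) and at 6.06 and 5.94 TPM in ESC and 63.9 and 62.5 TPM in EpiLC (log2 difference 3.2, SE 0.097). Pfkfb3, which makes the activator of that enzyme, fell from 22.9 and 30.1 to 0.429 and 0.632 TPM (log2 difference -4.16, SE 0.138). Pdha1, a subunit of pyruvate dehydrogenase, fell from 148 and 148 to 15.2 and 19.6 TPM (log2 difference -3.03, SE 0.107), and the lactate dehydrogenase Ldhb fell from 1243 and 1247 to 274 and 282 TPM (log2 difference -2.16, SE 0.047). Its partner subunit Ldha was at a mean of 2193 TPM in ESC and 2027 TPM in EpiLC and did not pass. The glucose transporter Slc2a1 rose from 247 and 238 to 810.2 and 908 TPM (log2 difference 1.82, SE 0.105). Of 24 tested citric acid cycle genes 1 rose, the succinyl-CoA ligase subunit Suclg2, and 1 fell without ESC replicate 1. Of 34 tested genes of fatty acid oxidation and mitochondrial control 3 rose (8.82%) and 4 fell (11.8%), near the background of 12.5% and 10.8%. Ucp2, a carrier of the inner mitochondrial membrane, was at 2.77 and 1.8 TPM in ESC and 159 and 171 TPM in EpiLC (log2 difference 5.67, SE 0.131, limma adjusted p = 5.47e-10). Hadha and Hadhb, the 2 chains of the trifunctional protein, fell from 189 and 205 to 64.4 and 65 TPM and from 266 and 271 to 98.6 and 93.8 TPM. Of 40 tested fatty acid synthesis and storage genes 10 rose and 7 fell, and with a pseudocount of 5, 5 rose. The fatty acid binder Fabp5 rose from 54.3 and 43.3 to 541 and 629 TPM (log2 difference 3.56, SE 0.135), and the apolipoprotein Apoe fell from 2268 and 2361 to 544 and 465 TPM (log2 difference -2.2, SE 0.083).

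The first enzymes of threonine breakdown and of serine synthesis moved in opposite directions. Rodent naive cells are known for breaking down threonine through Tdh. Tdh was at 679 and 687 TPM in ESC and 13.7 and 10.8 TPM in EpiLC (log2 difference -5.7, SE 0.111, limma adjusted p = 2.31e-10). Phgdh, the first enzyme of serine synthesis, was at 61 and 61.5 TPM in ESC and 533 and 549.7 TPM in EpiLC (log2 difference 3.12, SE 0.061, limma adjusted p = 2.31e-10). Tdh lay above Phgdh in both ESC libraries and below it in both EpiLC libraries. Cth, which makes cysteine, rose from 1.06 and 0.924 to 31.9 and 32.1 TPM (log2 difference 4.05, SE 0.13), and Cbs, which feeds it, fell from 105 and 108 to 21 and 17.3 TPM (log2 difference -2.42, SE 0.094). Over the list of 32 tested genes 7 rose and 5 fell. Of 45 tested amino acid transport and glutamine genes 9 rose and 9 fell, and with a pseudocount of 5, 5 rose. The glutamate transporter Slc1a1 fell from 121 and 123 to 6.87 and 5.94 TPM (log2 difference -4.05, SE 0.09), and Glul, which makes glutamine, fell from 1382 and 1525 to 189.7 and 191 TPM (log2 difference -2.92, SE 0.065). Of 38 tested nucleotide synthesis genes 6 rose and 3 fell, the latter 1 without EpiLC replicate 2.

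Lysosome, hypoxia and iron genes were mixed. Of 51 tested lysosome and autophagy genes 9 rose (17.6%) and 8 fell (15.7%), not far from the background of 12.5% and 10.8%. The related factors that drive them parted. Tfeb was at 70.3 and 69.9 TPM in ESC and 3.89 and 2.99 TPM in EpiLC (log2 difference -4.01, SE 0.189, limma adjusted p = 5.61e-08), Mitf was at 66.9 and 77.5 TPM in ESC and 1.21 and 0.739 TPM in EpiLC (log2 difference -5.22, SE 0.155, limma adjusted p = 2.45e-09), and Tfe3 rose from 42.9 and 43.2 to 104 and 99 TPM (log2 difference 1.22, SE 0.076). Ctsc, a protease, rose from 0.138 and 0.087 to 11.4 and 13.7 TPM (log2 difference 3.6, SE 0.132). Ulk1, the kinase that starts autophagy, fell from 25.3 and 33.6 to 5.24 and 4.63 TPM (log2 difference -2.35, SE 0.135), and Gabarapl1, of the membrane of autophagosomes, rose from 2.76 and 3.21 to 28.8 and 30 TPM (log2 difference 2.93, SE 0.132). Of 24 tested hypoxia response genes 7 rose and 6 fell. Bnip3 fell from 90.6 and 92.2 to 7.57 and 8.5 TPM (log2 difference -3.36, SE 0.093), Kdm3a fell from 247 and 264 to 35.2 and 37.5 TPM (log2 difference -2.78, SE 0.064) and Fam162a rose from 53.8 and 55.7 to 289.6 and 309 TPM (log2 difference 2.43, SE 0.067). Of 24 tested iron and haem genes 4 rose and 2 fell, and Slc40a1, the iron exporter, rose from 0.139 and 0.255 to 16.7 and 17.4 TPM (log2 difference 3.92, SE 0.139).

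Few chromatin genes fell among the remodellers. Of 49 tested genes of BAF and other remodellers 9 rose and 1 fell, with a median of 0.4, and with a pseudocount of 5, 5 rose. Bcl11a, a BAF subunit and zinc finger factor, rose from 0.025 and 0.009 to 7.83 and 8.37 TPM (log2 difference 3.16, SE 0.112), and Smarca1, an ISWI motor, rose from 0.02 and 0 to 4.11 and 4.43 TPM (log2 difference 2.38, SE 0.124). Hells, a remodeller needed for DNA methylation, rose from 39.7 and 45.9 to 114 and 115 TPM (log2 difference 1.41, SE 0.073). Baz1a, the gene that fell, went from 18.4 and 18.8 to 2.34 and 2.15 TPM (log2 difference -2.6, SE 0.115). Of 38 tested Polycomb genes 7 rose (18.4%) and 6 fell (15.8%), not far from the background of 12.5% and 10.8%. With a pseudocount of 5, 4 rose. Phc1, of the PRC1 complex, was at 18.6 and 21.2 TPM in ESC and 313 and 332 TPM in EpiLC (log2 difference 3.95, SE 0.077, limma adjusted p = 2.31e-10). Cbx8, another PRC1 member, fell from 6.7 and 5.93 to 0.379 and 0.353 TPM (log2 difference -2.42, SE 0.125). The methyltransferases of PRC2 crossed, since Ezh1 fell from 121 and 128 to 55.6 and 60.3 TPM (log2 difference -1.1, SE 0.068) and Ezh2 rose from 44.1 and 42.7 to 90 and 91.4 TPM (log2 difference 1.05, SE 0.067), a rise that was 0.98 with a pseudocount of 5. Of 38 tested deacetylase, NuRD and corepressor genes 3 rose (7.89%) and 6 fell (15.8%), and with a pseudocount of 5, 3 fell. Among them Hdac2 fell from 948 and 927 to 299 and 295 TPM (log2 difference -1.65, SE 0.055). Of 56 tested histone methyltransferases and demethylases 4 rose (7.14%) and 3 fell (5.36%), both shares below the background of 12.5% and 10.8%. The count that rose was not stable. With a pseudocount of 0.1 it was 9 of 56, while 2326 of all tested genes rose, against 1698. It was also higher without ESC replicate 2, as was the count over all genes. How far the risen share lay below the background therefore depends on the setting and on that library. Among the few of this list that passed, Kdm3b fell from 34.2 and 44 to 5.66 and 6.23 TPM (log2 difference -2.52, SE 0.124) and Kdm5b rose from 11.8 and 13.3 to 63.3 and 70.9 TPM (log2 difference 2.33, SE 0.085).

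Genes of DNA methylation and demethylation moved in both directions. Of 22 tested genes 5 rose and 5 fell. The de novo enzymes had the largest rises of this list, with Dnmt3b at 155 and 143 TPM in ESC and 2666 and 2887 TPM in EpiLC (log2 difference 4.21, SE 0.106) and Dnmt3a at 13.4 and 16.3 TPM in ESC and 196 and 205 TPM in EpiLC (log2 difference 3.67, SE 0.125). Tet2, which oxidizes methylcytosine, was at 69.4 and 78.8 TPM in ESC and 0.753 and 0.974 TPM in EpiLC (log2 difference -5.33, SE 0.12, limma adjusted p = 4.71e-10). Tet1 was at a mean of 27.8 TPM in ESC and 39.2 TPM in EpiLC and did not pass. Gadd45g, linked to demethylation and stress, fell from 124 and 127 to 5.54 and 3.17 TPM (log2 difference -4.6, SE 0.173). Tdg, the glycosylase that removes oxidized cytosine, rose from 46.4 and 50.7 to 189.7 and 194 TPM (log2 difference 1.96, SE 0.069). Dnmt3l, the cofactor of the de novo enzymes, fell from 1121 and 1039 to 331 and 255 TPM (log2 difference -1.89, SE 0.214), and Zfp57, which keeps methylation at imprinted loci, fell from 79.6 and 78 to 12.3 and 11 TPM (log2 difference -2.66, SE 0.112). Dnmt1, the maintenance enzyme, stood at 109 and 123 TPM in ESC and 148 and 142 TPM in EpiLC and did not pass. Of 35 tested retroelement silencing genes 7 rose and 4 fell, and with a pseudocount of 5, 3 rose and 2 fell. Pphln1, of the HUSH silencing complex, rose from 12.1 and 13.4 to 138 and 146 TPM (log2 difference 3.38, SE 0.082).

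Genes of microRNA, LIN28 and m6A proteins rose more often than they fell. Of 40 tested LIN28, IGF2BP, microRNA and m6A genes 11 rose and 2 fell, with a median of 0.44. Zfp36l2, which promotes decay of AU-rich messages, was at 18.6 and 18 TPM in ESC and 312 and 284 TPM in EpiLC (log2 difference 3.95, SE 0.086, limma adjusted p = 4.23e-10). Prkra, a partner of Dicer and PKR, rose from 19 and 24.1 to 95.1 and 103 TPM (log2 difference 2.16, SE 0.112), and Igf2bp2 fell from 482 and 529 to 67.8 and 48.6 TPM (log2 difference -3.12, SE 0.147). Epithelial splicing factors crossed. Esrp1 was at 0.158 and 0.297 TPM in ESC and 51.1 and 57.1 TPM in EpiLC (log2 difference 5.49, SE 0.091, limma adjusted p = 1.04e-10), and Esrp2 was at 59 and 68.2 TPM in ESC and 12.2 and 13.4 TPM in EpiLC (log2 difference -2.23, SE 0.091, limma adjusted p = 2.09e-08). Rbm24, a splicing factor of muscle, fell from 67.8 and 65.9 to 1.63 and 1.72 TPM (log2 difference -4.66, SE 0.076). Of 38 tested splicing regulators 5 rose (13.2%) and 3 fell, the former near the background of 12.5%.

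Ribosome biogenesis and DNA replication genes rarely reached the required size, although their medians of 0.39 and 0.3 lay above that of all genes. In the first list 1 of 52 tested genes rose and 1 fell, the latter not without ESC replicate 2, and in the second 2 of 49 rose. Ddx21, a helicase of ribosomal RNA, rose from 41.7 and 45.4 to 103 and 107 TPM (log2 difference 1.25, SE 0.08), and Pclaf, which binds the replication clamp, was at 0.72 and 1.05 TPM in ESC and 279 and 279.5 TPM in EpiLC (log2 difference 7.22, SE 0.115, limma adjusted p = 8.85e-11). The clamp loader Rfc1 rose from 39.8 and 41.5 to 102 and 104 TPM (log2 difference 1.32, SE 0.059). Of 38 tested genes of the G1 phase 4 rose and 8 fell, and 2 rose without EpiLC replicate 2. Cdkn2d, an inhibitor of CDK4 and CDK6, fell from 24.4 and 23.3 to 1.98 and 2.47 TPM (log2 difference -2.95, SE 0.112), and Ccnd1, a cyclin that activates them, fell from 275 and 306 to 70.8 and 78.7 TPM (log2 difference -1.94, SE 0.088). Cdk6 rose from 0.074 and 0.054 to 7.35 and 6.28 TPM (log2 difference 2.87, SE 0.129), and Ccne1, the cyclin of S phase entry, rose from 121 and 112 to 279 and 256 TPM (log2 difference 1.19, SE 0.077). Myc rose from 15.2 and 18 to 58.4 and 59.4 TPM (log2 difference 1.77, SE 0.138) and was the 1 riser among 14 tested genes of its network, of which 3 fell.

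Genes of cell death moved in both directions. Of 40 tested genes 6 rose (15%) and 7 fell (17.5%), not far from the background of 12.5% and 10.8%. With a pseudocount of 5, 2 rose. Bad was at 189 and 201 TPM in ESC and 19.4 and 17.9 TPM in EpiLC (log2 difference -3.32, SE 0.091, limma adjusted p = 1.48e-09), and Bid was at 4.78 and 5.18 TPM in ESC and 49.4 and 47.9 TPM in EpiLC (log2 difference 3.05, SE 0.068, limma adjusted p = 4.51e-10). Bcl2l11 (BIM) rose from 2.51 and 2.94 to 20 and 20.6 TPM (log2 difference 2.52, SE 0.129), and Bik fell from 42.3 and 46 to 11 and 8.53 TPM (log2 difference -2.08, SE 0.11). All 4 encode proteins that set off mitochondrial death. Ripk3, the kinase of necroptosis, fell from 27.9 and 27.9 to 0.522 and 0.921 TPM (log2 difference -4.08, SE 0.129). Of 35 tested heat shock genes 2 rose (5.71%, below the background) and 4 fell (11.4%, near the background). Bag2, a cochaperone, rose from 18.3 and 18 to 154 and 128 TPM (log2 difference 2.89, SE 0.09). Of 38 tested genes of ATF4 and the unfolded protein response 3 rose and 3 fell (7.89% each), both shares below the background. Nupr1, a stress-induced nuclear protein, fell from 166 and 136 to 3.62 and 2.18 TPM (log2 difference -5.3, SE 0.195).

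Interferon and antigen presentation genes fell more often than they rose. Of 39 tested members 2 rose and 16 fell, with a median of -0.64. Ifitm1 and Ifitm3, membrane proteins that block viral entry and lie in a family that may share reads, were at 2335 and 2273 TPM in ESC and 159.9 and 126 TPM in EpiLC and at 100.1 and 119 TPM in ESC and 5.11 and 5.17 TPM in EpiLC. B2m, the light chain of MHC class I, was at 201 and 212 TPM in ESC and 37.9 and 29 TPM in EpiLC (log2 difference -2.6, SE 0.114, limma adjusted p = 3.38e-08). The proteasome activators Psme1 and Psme2 fell from 149 and 155 to 21.9 and 22.6 TPM and from 201 and 205 to 40.2 and 43 TPM. Tapbp, which loads peptides onto MHC class I, fell from 34.4 and 43.3 to 7.01 and 7.21 TPM (log2 difference -2.29, SE 0.101). The factors Irf1 and Irf9, which drive such genes, fell from 42.7 and 40.9 to 7.81 and 6.71 TPM and from 17.1 and 16.3 to 3.96 and 3.44 TPM. Ddx58 (RIG-I), a sensor of viral RNA, fell from 6.79 and 7.74 to 0.503 and 0.951 TPM (log2 difference -2.27, SE 0.132). Tap2, of the peptide transporter, rose from 0.247 and 0.433 to 1.91 and 2.01 TPM (log2 difference 1.15, SE 0.116), and Tap1, its partner, stood at 0.581 and 1.31 TPM in ESC and 1.27 and 0.986 TPM in EpiLC and did not pass. The rise of Tap2 was not called with quantile normalization, and neither of the 2 rises was with a pseudocount of 5.

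Transcription factor families shifted unevenly. Of 22 tested KLF and SP factors 2 rose and 11 fell, with a median of -0.93, and with a pseudocount of 5, 7 fell. Klf5 fell from 42.3 and 46.2 to 11 and 7.66 TPM (log2 difference -2.15, SE 0.135), Klf8 fell from 5.59 and 6.97 to 0.186 and 0.097 TPM (log2 difference -2.67, SE 0.135) and Klf17 fell from 7.9 and 7.19 to 1.59 and 1.37 TPM (log2 difference -1.78, SE 0.126). Of 13 tested SOX factors 3 rose and 4 fell. Sox4 was at 2.21 and 3.09 TPM in ESC and 145 and 126 TPM in EpiLC (log2 difference 5.23, SE 0.125, limma adjusted p = 6.79e-10), Sox3 was at 0.788 and 0.741 TPM in ESC and 74.5 and 79.6 TPM in EpiLC (log2 difference 5.47, SE 0.16, limma adjusted p = 2.23e-09), and Sox11 rose from 5.03 and 6.71 to 43.8 and 44.2 TPM (log2 difference 2.72, SE 0.128). Sox13 fell from 12.8 and 15 to 1.79 and 1.74 TPM (log2 difference -2.42, SE 0.107). Of 14 tested POU, ZIC, SALL and LHX factors 5 rose and 1 fell, while their median was -0.41. Sall1 rose from 2 and 1.84 to 24.2 and 26 TPM (log2 difference 3.16, SE 0.105), and Sall3 fell from 25.5 and 25.9 to 0.046 and 0.048 TPM (log2 difference -4.67, SE 0.116).

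Of 26 tested forkhead factors 3 rose and 5 fell. Foxj1, the driver of motile cilia, rose from 0.156 and 0.342 to 24.7 and 17.4 TPM (log2 difference 4.12, SE 0.255), and Foxi3 and Foxq1 fell from 21.3 and 22.9 to 0.599 and 0.332 TPM and from 20.9 and 23 to 0.587 and 0.971 TPM. Of 30 tested nuclear receptors 4 rose and 4 fell (13.3% each), near the background of 12.5% and 10.8%. Rara, a retinoic acid receptor, rose from 5.59 and 5.52 to 30.7 and 34.2 TPM (log2 difference 2.35, SE 0.115), and Nr2f6, an orphan receptor, rose from 34.9 and 34.9 to 211 and 189 TPM (log2 difference 2.48, SE 0.061). Nr5a1, a steroidogenic factor, rose from 0.106 and 0.13 to 8.13 and 8.23 TPM (log2 difference 3.04, SE 0.114). Of 17 tested ETS factors 4 rose and 5 fell, with Ets2 at 3.83 and 4.42 TPM in ESC and 50.5 and 43.4 TPM in EpiLC (log2 difference 3.23, SE 0.121, limma adjusted p = 1.15e-08). Of 17 tested GATA, TFAP2, grainyhead and DLX factors 1 rose and 6 fell. Grhl2, a factor of epithelial genes, rose from 7.12 and 6.75 to 29.6 and 30.8 TPM (log2 difference 1.97, SE 0.18), and Tfap2a fell from 7.59 and 6.21 to 0.03 and 0 TPM (log2 difference -2.96, SE 0.124). Of 17 tested maternal and oocyte genes 5 rose and 6 fell, and 2 rose with a filter at 5 TPM or a pseudocount of 5. Sohlh2, a germ cell factor, was at 2.35 and 2.85 TPM in ESC and 104 and 85 TPM in EpiLC (log2 difference 4.73, SE 0.126, limma adjusted p = 1.25e-09), and Khdc3, of the oocyte's subcortical complex, fell from 80.3 and 78.5 to 5.92 and 4 TPM (log2 difference -3.77, SE 0.166).

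Of 37 tested pairs of related genes 10 moved in opposite directions and 2 in the same one. Besides the pairs Ezh1 and Ezh2, Tfe3 and Tfeb, Jak1 and Jak2, Esrp1 and Esrp2, Tead2 and Tead4, Lama1 and Lama5, and Lefty1 and Lefty2, they were Sox2 and Sox3, Ccnd1 and Ccnd2, and Tubb4a and Tubb2b. In EpiLC the Sox3 level per length was above that of Sox2 in both libraries. Esrp1 passed Esrp2 in the same way. Ccnd2 rose from 0.847 and 1.55 to 3.21 and 6.11 TPM (log2 difference 1.33, SE 0.246), but stayed below Ccnd1 in every library, and its rise was 0.96 without EpiLC replicate 2 and 0.63 with a pseudocount of 5. The pairs were chosen as related genes with earlier results of these data known, so their counts describe this choice and not related genes in general. No chance level was computed for them.

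**Figure D4:**
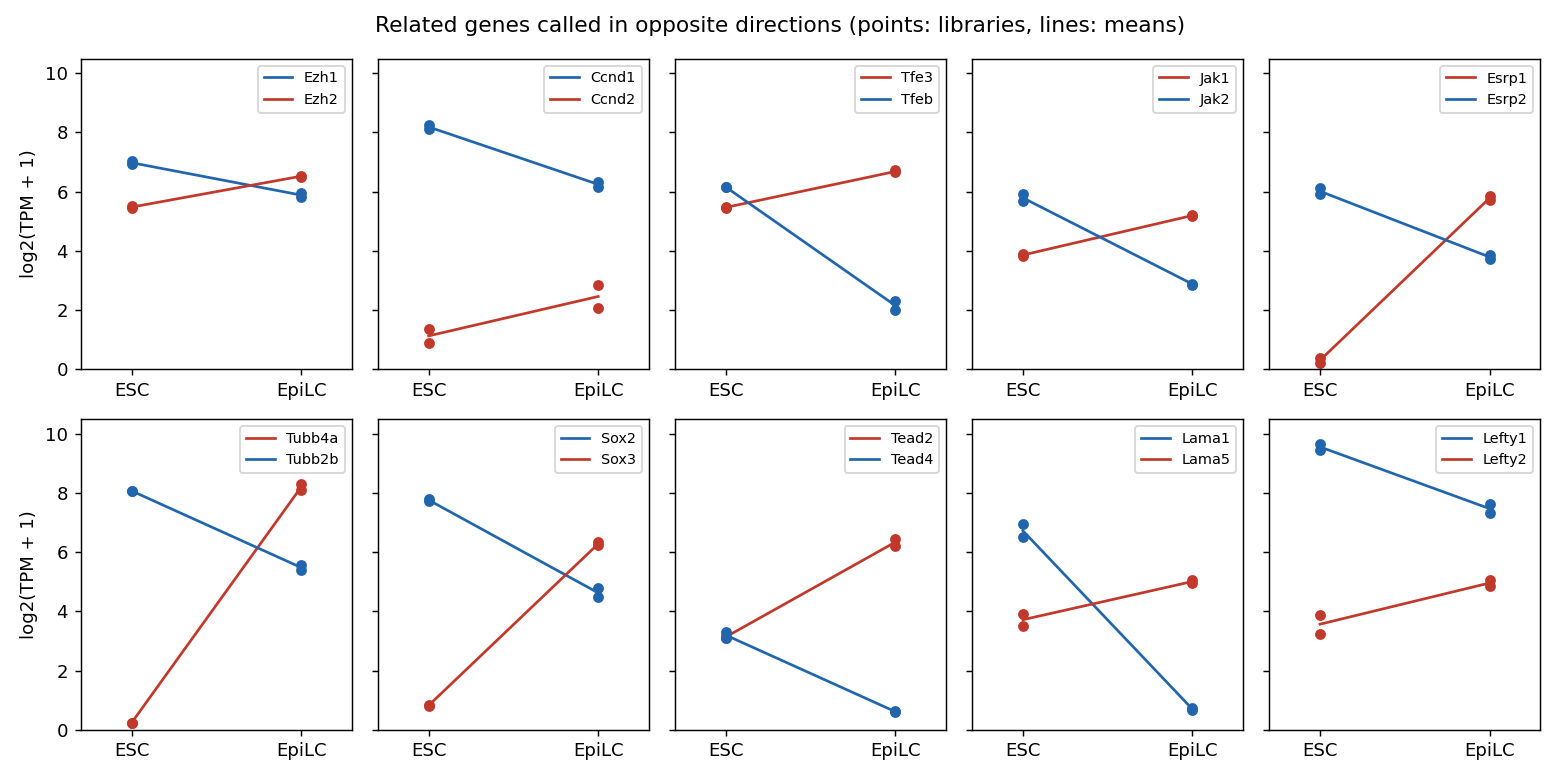
Levels of the 10 pairs of related genes that moved in opposite directions, as log2(TPM + 1), with a point for each library and lines through the group means, the gene that rose in red and the gene that fell in blue. The lines of Ezh1 and Ezh2, Esrp1 and Esrp2 or Sox2 and Sox3 cross between ESC and EpiLC, and those of Ccnd1 and Ccnd2 or Lefty1 and Lefty2 do not.

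Grouped by the leading letters of their symbols, 143 families had at least 10 tested members, and the extremes are given as a description. The greatest shares that rose were in Cdh (5 of 11), Hsd (5 of 12), Lrp (4 of 10), Col (6 of 16), Arhgef (8 of 22) and Fkbp (5 of 14). Some of these genes stayed low in EpiLC, as Cdh3 at 1.49 and 1.56 TPM, Cdh13 at 1.43 and 2.91 TPM and Hsd3b1 at 1.47 and 1.88 TPM. The risen Col1a2, Col6a2 and Col6a3 are also in the fibroblast and feeder list. Like Dcn, Cdh11 (2.69 and 6.02 TPM) and Col6a2 (2.8 and 5.73 TPM) were higher in EpiLC replicate 2. Among cadherins Cdh10 rose from 0.073 and 0 to 13.5 and 15.4 TPM (log2 difference 3.9, SE 0.124), and Cdh7 rose from 0.091 and 0.083 to 12.1 and 12.8 TPM (log2 difference 3.63, SE 0.185). Among steroid dehydrogenases Hsd11b2, which inactivates glucocorticoids, was at 25.1 and 24.4 TPM in EpiLC while ESC replicates 1 and 2 both list it at 0. Fkbp4, a partner of HSP90 at steroid receptors, rose from 264 and 259 to 1023 and 1079.9 TPM (log2 difference 2.0, SE 0.048). The greatest shares that fell were in Klf (8 of 15), Tnfrsf (5 of 12), Tex (6 of 16), Sox (4 of 13), Adam (3 of 10) and Dusp (6 of 20), with Irf (3 of 10) and Krt (3 of 10) tied with the last 2. The membrane proteases Adam9 and Adam19 fell from 135 and 138 to 16.3 and 18.6 TPM and from 97.2 and 104 to 17.1 and 16.1 TPM. Tex19.2 and Tex12, the latter of the synaptonemal complex, fell from 352 and 309 to 93.3 and 67 TPM and from 135 and 133 to 23 and 17.3 TPM. The Dusp family split, since 6 members rose and 6 fell, and Dusp26 was at 611 and 594 TPM in ESC and 16.6 and 14.6 TPM in EpiLC (log2 difference -5.19, SE 0.185, limma adjusted p = 7.81e-09), against the rise of Dusp6.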

How the data were processed

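RNA sequencing libraries of 2 ESC and 2 EpiLC samples were compared, grouped by the sample titles. RNA was purified with PicoPure columns, per the labels' protocols, and amplified with SMART-Seq v4, and the libraries were finished with KAPA Hyper Prep. Per the submitters' processing notes, the tools were bcl2fastq 2.20, cutadapt 1.1.6, HISAT2 2.1.0 and featureCounts of Subread 1.6.5, with the rat build rn7. The authors deposited log2(TPM + 1) per gene and sample, and 11066 rows without a gene name were left out. TPM keeps no read totals, so depth was estimated only relative to ESC replicate 1, from the steps of low values.

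Genes with at least 1 TPM in at least 2 of the 8 samples entered a 2-sided limma fit with a variance trend (limma 3.58.1, R 4.3.3), with all 4 groups in the fit, which gave 4 residual degrees of freedom and a median residual SD of 0.104. The adjusted p covers all 13571 tested genes, and no test was made over a list. Having 2 libraries in a group limits precision.

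The 70 gene lists, the 40 related pairs and the comparison itself were chosen with earlier results of these data known. The table held 2323 list genes, of which 1864 were tested. Named were the 12 largest rises and falls, up to 3 genes per list and direction with at least 5 TPM in the higher group, opposite pairs, extreme symbol families and markers of other cell types. The ranking of rises and falls left out clone-style symbols and genes at low levels in both groups. Some other members, named to complete a group, were chosen after their values were seen. Alternatives were another pseudocount, filter, scaling, prior, sample set, a replicate block, no minimum difference and leaving out each library. By symbol, 14965 named genes matched RefSeq promoters, and the first promoter per symbol was used.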

Additional observations from a re-analysis of the deposited data

How the results depend on the processing

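With the required difference dropped, 4807 genes rose and 4322 fell, and with a pseudocount of 5 these were 879 and 871, against 1698 and 1467. The other settings kept both counts within 1.5 times of these, and leaving out 1 library gave 1624 to 1822 that rose and 1405 to 1566 that fell. With the replicate block 1697 genes rose and 1467 fell. The replicate numbers share only a number, since the deviations of same-numbered libraries correlated at 0.0662. The ranking, the lists and the opposite pairs named 333 genes, and other genes given in the text were not in this gene check. All 333 were called with groups that did not overlap, so a change of direction was hardly possible from the start. None of the 333 changed direction under any setting. The call was lost for 31 with a pseudocount of 5, 4 with quantile normalization, 1 with median-of-ratios rescaling, 4 without ESC replicate 2 and 5 without EpiLC replicate 2. Of 140 list counts 57 moved by over 1.5 times with a pseudocount of 5, 97 without a required difference, 21 with a pseudocount of 0.1, 11 with a filter at 5 TPM and 8 with quantile normalization. With a pseudocount of 0.1, 7 Notch, 6 NODAL, 7 glycan, 10 cell death, 9 nuclear receptor, 5 SOX and 6 interferon genes rose. With a pseudocount of 5, 1 glycan, 4 hypoxia, 1 ETS and 2 G1 genes rose, and 3 heparan sulphate, 3 forkhead, 2 SOX, 2 nuclear receptor, 2 heat shock and 1 MYC network genes fell. The median of all genes was 0.038, and 0.013 and 0.0015 after median-of-ratios and quantile scaling. No read totals are given with TPM, so differences of genes with few reads cannot be weighed against counting error.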
